A study of Homo sapiens with 18 samples.

Results

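These data are the transcriptional response to isoproterenol in HEK293 cells that lack β-arrestin1/2, read from 6 of the 18 RNA-Seq libraries of the study. The members are all libraries of the β-arrestin1/2 KO line, 3 at basal and 3 after isoproterenol, chosen by cell line and treatment alone and not by any measured value. HEK293 is an established human embryonic kidney line, and both arrestin genes had been targeted in it with CRISPR-Cas9. Both groups carried the knockout and an HA-β2AR plasmid, so that the receptor was overexpressed. They had been serum starved overnight, and 48 h after transfection they received vehicle or 1 μM isoproterenol for 1 h. The labels call the 3 libraries of a group biological replicates and do not say more of how these were separated, and p-values measure the spread between them. Wildtype and Gαs KO libraries did not enter the comparison.

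Isoproterenol is a synthetic agonist of β-adrenergic receptors. The β2AR couples to Gαs, which stimulates adenylyl cyclases to make cAMP, and cAMP releases the catalytic subunits of protein kinase A (PKA). PKA phosphorylates CREB, a transcription factor bound to the cAMP response element (CRE, TGACGTCA), and so switches on a set of immediate-early genes. β-arrestins bind the phosphorylated receptor, uncouple it from Gαs, bring it to clathrin-coated pits for internalization and scaffold kinases of the MAPK cascade.

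The starts of several genes raised here carry the CRE letters, and 8 of them are shown because each belongs to a gene whose count rose and whose window holds a CRE or its shorter core (TGACG, or CGTCA on the other strand). Each line is the 150 bases before the RefSeq start (GRCh38.p14), written 5′ to 3′ on the strand of the gene, with these letters in capitals. For CREM, the line shows the window with a full CRE, chosen from 7 windows of that gene.
CGA (chr6:87095107-87095256, minus strand): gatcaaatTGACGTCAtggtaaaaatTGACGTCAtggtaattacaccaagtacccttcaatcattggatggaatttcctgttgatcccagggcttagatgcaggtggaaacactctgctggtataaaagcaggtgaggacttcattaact
DUSP1 (chr5:172771196-172771345, minus strand): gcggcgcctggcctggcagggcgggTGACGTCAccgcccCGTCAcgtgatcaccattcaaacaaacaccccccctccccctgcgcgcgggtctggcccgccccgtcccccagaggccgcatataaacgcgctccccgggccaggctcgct
NR4A3 (chr9:99821735-99821884, plus strand): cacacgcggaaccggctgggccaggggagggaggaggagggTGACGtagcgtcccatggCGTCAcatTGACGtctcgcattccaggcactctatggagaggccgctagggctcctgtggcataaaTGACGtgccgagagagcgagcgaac
SIK1 (chr21:43427132-43427281, minus strand): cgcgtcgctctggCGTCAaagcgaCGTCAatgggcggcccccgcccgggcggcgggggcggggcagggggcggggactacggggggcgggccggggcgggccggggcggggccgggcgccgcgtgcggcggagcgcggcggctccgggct
EVX1 (chr7:27242652-27242801, plus strand): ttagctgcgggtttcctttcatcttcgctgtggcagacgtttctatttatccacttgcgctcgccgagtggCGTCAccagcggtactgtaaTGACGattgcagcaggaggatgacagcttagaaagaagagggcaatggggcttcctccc
FOS (chr14:75278678-75278827, plus strand): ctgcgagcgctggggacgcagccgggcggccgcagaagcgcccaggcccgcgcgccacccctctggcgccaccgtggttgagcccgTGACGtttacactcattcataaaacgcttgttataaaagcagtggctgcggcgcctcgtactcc
FOSB (chr19:45467846-45467995, plus strand): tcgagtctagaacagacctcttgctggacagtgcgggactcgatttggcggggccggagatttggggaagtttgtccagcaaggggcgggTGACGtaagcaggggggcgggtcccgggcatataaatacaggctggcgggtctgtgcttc
CREM (chr10:35195752-35195901, plus strand): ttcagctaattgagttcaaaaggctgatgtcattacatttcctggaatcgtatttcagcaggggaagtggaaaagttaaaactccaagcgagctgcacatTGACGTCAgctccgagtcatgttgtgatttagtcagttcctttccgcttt
The CGA window held a pair of full CREs, which began 142 and 124 bases before the start. In DUSP1 a full CRE began at -125 and a short core at -111. NR4A3 had no full CRE but 4 short cores between -109 and -25, and EVX1 and SIK1 had 2 each. FOS and FOSB each had a single short core, at -64 and -60. Such a match is a description of letters and does not show that CREB binds there.

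The 6 libraries held 18433424 to 25019834 counts, of which 93.7% could be assigned to genes, and 14627 genes passed the filter on low counts. All 7 markers of HEK293 cells, among them VIM, KRT8, KRT18 and LIN28B, had over 10 counts in each library. Of the other marker lists, blood markers PTPRC, CD3E and HBB were at 0 in all 6 libraries, and ALB, a defining liver gene, had at most 8 counts. The summed fibroblast markers, nearly all COL1A1, were 738 to 975 at basal and 789 to 908 after isoproterenol, and the endothelial sum was 86 to 130 and 107 to 128. The groups separated on the leading principal component, which held 32.2% of the variance, with basal libraries from -32.35 to -8.40 and isoproterenol libraries from 19.05 to 25.10.

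The targeted genes were read in each library. ARRB2 (ENSG00000141480), which encodes β-arrestin2, had 451, 411 and 349 normalized counts at basal and 347, 296 and 360 after isoproterenol. A normalized count is the edgeR TMM-scaled count at the geometric mean of the library sizes. Against the basal wildtype libraries ARRB2 was lower by a log2 difference of -2.25 (adjusted p = 2.59e-08, edgeR). ARRB1 (ENSG00000137486), which encodes β-arrestin1, had 818, 732 and 842 at basal and 808, 833 and 839 after isoproterenol. Its difference from wildtype was -0.27 and did not pass (adjusted p = 0.141), so the ARRB1 transcript count does not mark the knockout in these libraries. Scaled over all 18 libraries, the wildtype basal libraries had 1235, 731 and 858 for this gene and the KO basal libraries 801, 727 and 831. The highest wildtype value was that of replicate 1, which stood apart in GC content (52.5% against 49.2 and 49.6%). A transcript that is still made can carry an edit that ends the protein, and counts per gene do not show it. By Western blot, the study reported that both β-arrestin proteins were lost in the knockout cells. Isoproterenol changed neither gene past the threshold (log2 fold change 0.05, adjusted p = 0.673 for ARRB1, and -0.27, adjusted p = 0.185 for ARRB2).

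The question of this comparison is which genes change after receptor stimulation in cells without β-arrestins. With edgeR's quasi-likelihood test on the 6 libraries and a Benjamini-Hochberg adjusted p under 0.05, 1161 of 14627 genes were called (7.94%), 725 higher (4.96%) and 436 lower (2.98%) with isoproterenol. The median size of the called changes was 0.314 on the log2 scale. The isoproterenol and basal values did not overlap for any of the 1161 genes, and they also did not overlap for 30.9% of all genes tested. With a log2 fold change of 1 or more, 75 genes were higher (0.513%) and 17 lower (0.116%), so the large changes were mostly increases. Of those 75 genes, 65 were also called with offsets for GC content and transcript length and 57 in a fit of all 18 libraries. That fit called 175 genes in all, and 1849 when wildtype basal replicate 1, which is outside this comparison, was left out. Of the 220 genes raised by less than 0.25, 14 were called with the offsets and 0 in the fit of all 18 libraries. The 25 genes with the largest increase were called in each of the 6 fits that left out 1 library. For the 20 with the largest decrease this held for 6 genes, and 12 were called in at most 2 of these fits.

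**Figure D1:**
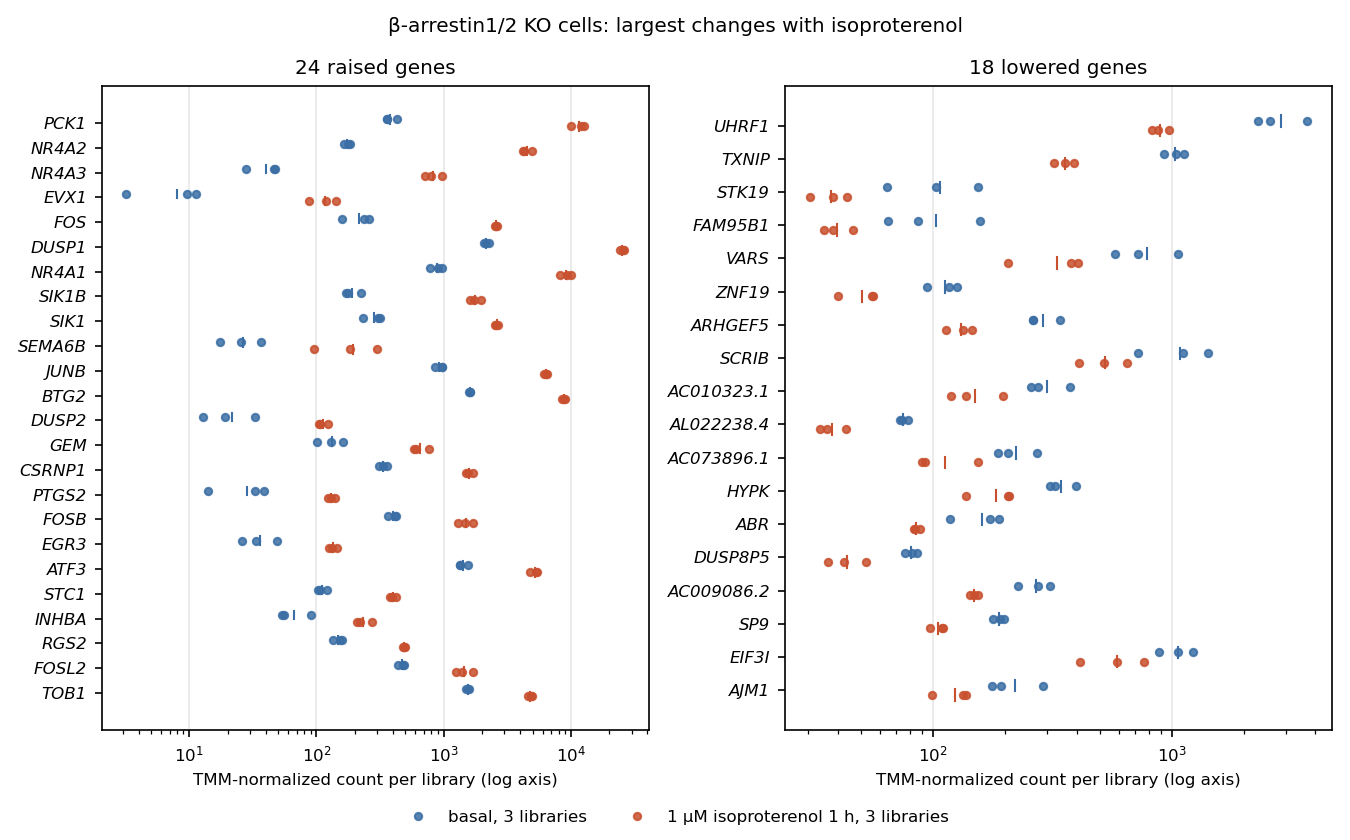
TMM-normalized counts of the 6 β-arrestin1/2 KO libraries on a log axis, for the genes with the largest increase (left, 24 genes) and decrease (right, 18 genes) that had counts in both groups; points are libraries and ticks are group means. The raised genes span basal means from 8.02 (EVX1) to 2154 (DUSP1). Groups that do not overlap were a condition for a gene to be drawn.

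PCK1 (ENSG00000124253, chromosome 20, 57561080 to 57568112 of GRCh38) encodes the cytosolic phosphoenolpyruvate carboxykinase of gluconeogenesis and is a classical CREB target in liver. It had 356, 358 and 427 normalized counts at basal and 12621, 10054 and 11974 after isoproterenol. The lowest stimulated library was far above the highest basal library, and the mean was 30.4 ± 3.51 times the basal mean (SD of the 3 isoproterenol libraries). The log2 fold change was 4.93 (standard error 0.11, adjusted p = 5.65e-09). A transcript of PCK1 annotated with a retained intron held 4.90 ± 3.70% of the gene's counts at basal and 12.06 ± 1.21% after isoproterenol. SLC2A3, which encodes the glucose transporter GLUT3, rose from 3331 ± 187 to 8051 ± 385 normalized counts (mean ± SD, n = 3 here and below; log2 fold change 1.27, adjusted p = 1.06e-06). These were the 2 called genes of the 10 tested in the glucose metabolism list, whose median log2 fold change was 0.18 against -0.0043 over all genes tested. IRS2, a docking protein of the insulin receptor, had 8453 ± 298 and 9400 ± 345 (adjusted p = 0.0727), and PFKFB3, PDK4, SLC2A1 and HK2 did not pass either.

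The NR4A genes encode orphan nuclear receptors without a known hormone ligand that are made within an hour of many stimuli. All 3 rose. NR4A2 (ENSG00000153234, chromosome 2, 156324432 to 156342348) had 164, 184 and 178 normalized counts at basal and 4989, 4218 and 4312 after isoproterenol, a log2 fold change of 4.68 (standard error 0.09, adjusted p = 1.82e-09). NR4A3 (ENSG00000119508, chromosome 9, 99821855 to 99866891) went from 46.2, 28.0 and 47.1 to 972, 715 and 794 (log2 fold change 4.38, standard error 0.19, adjusted p = 1.06e-06). NR4A1 (ENSG00000123358, chromosome 12, 52022832 to 52059507) had 909, 785 and 973 and reached 10088, 8183 and 9354 (log2 fold change 3.38, standard error 0.10, adjusted p = 6.07e-08). The groups lay far apart for each of them. Per kb of transcript, NR4A1 had the highest level of the family in both groups (353 and 3656 normalized counts per kb), ahead of NR4A2 (53.7 and 1381) and NR4A3 (10.4 and 212).

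The make-up of NR4A2 transcripts also moved. The main transcript, NR4A2-201, held 64.2, 67.9 and 65.4% of the gene's counts at basal and 84.1, 80.0 and 83.9% after isoproterenol, while NR4A2-204 held 31.9, 16.8 and 27.8% and then at most 1.2%. In counts, NR4A2-204 stayed between 20.6 and 48.7 in all 6 libraries, so its share fell as the other transcripts rose. A retained-intron transcript of NR4A1 held 2.84 ± 0.21% at basal and 5.99 ± 0.57% after isoproterenol. These shares are estimates of Salmon for transcripts that overlap, and they were not tested.

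AP-1 is the dimer of FOS and JUN proteins that binds the TPA response element. Of its 7 subunit genes 6 rose (85.7% against 4.96% of all genes) and 0 fell, with a median log2 fold change of 1.63. FOS (ENSG00000170345, chromosome 14, 75278774 to 75282230) had 159, 234 and 260 normalized counts at basal and 2547, 2569 and 2625 after isoproterenol. The stimulated libraries were nearly equal, and the log2 fold change was 3.56 (standard error 0.13, adjusted p = 2.33e-07). JUNB had 963, 848 and 969 and then 6540, 6103 and 6385 (log2 fold change 2.78, standard error 0.06, adjusted p = 5.65e-09), and it overlaps HOOK2 on the other strand, whose reads could not be told apart without strand information. FOSB, FOSL2 and JUN rose less, by 1.89, 1.63 and 1.01 on the log2 scale, and JUND by 0.36. FOSL1, with 113 ± 15.0 and 170 ± 37.7, did not pass (adjusted p = 0.0934). The FOSB transcript FOSB-210 held 0.00, 1.11 and 3.25% of the gene's counts at basal and 10.50, 14.20 and 8.01% after isoproterenol. At basal this was 0.0, 5.9 and 12.6 counts. The main transcript, FOSB-201, held 57.9, 87.6 and 75.9% and then 74.5, 58.9 and 70.2%, values that overlapped. These shares were not tested.

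Of 23 other immediate-early transcription factors tested, 11 rose (47.8% against 4.96% of all genes) and 0 fell, with a median log2 fold change of 0.36. EGR2 and EGR3, zinc finger factors of the early growth response family, rose by 2.58 and 1.89 from low levels. EGR2 had 19.3, 8.80 and 10.7 normalized counts at basal and 98.8, 64.7 and 67.2 after isoproterenol. EGR1 rose by 0.56 (384 ± 35.1 to 566 ± 28.99 normalized counts, adjusted p = 0.00871) and was not called in the fit of all 18 libraries (adjusted p = 0.0798). ATF3, a stress-induced relative of CREB, rose from 1347, 1348 and 1554 to 5355, 4810 and 5384 (log2 fold change 1.87, adjusted p = 3.08e-07). IER2, KLF4 and MAFK rose by 1.38, 1.12 and 0.92, and KLF6, KLF9 and MYC by 0.46, 0.45 and 0.36. NFIL3 rose from 318 ± 53.2 to 733 ± 16.2 normalized counts. IER5, KLF2, KLF15, CEBPB and CEBPD were among the 12 members that did not pass.

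Outside these lists, EVX1 and CSRNP1 encode nuclear factors that were also among the largest increases. EVX1 (ENSG00000106038, chromosome 7, 27242700 to 27250493), an even-skipped homeobox gene, was nearly silent at basal with 9.66, 11.2 and 3.21 normalized counts and reached 142, 87.3 and 118 (log2 fold change 3.80, standard error 0.38, adjusted p = 4.39e-04). CSRNP1, an immediate-early nuclear protein, went from 335 ± 21.9 to 1593 ± 107 (log2 fold change 2.25, adjusted p = 1.88e-07). ZNF331, a zinc finger repressor, rose from 1110 ± 83.7 to 2921 ± 238 (a fold of 2.63 ± 0.214, adjusted p = 4.48e-06).

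In the list of the CREB family, its coactivators and the SIK kinases, 2 of 13 tested genes rose (15.4% against 4.96% of all genes). These were SIK1 and CREM, 0 fell, and the median log2 fold change was -0.07. SIK1 (ENSG00000142178, chromosome 21, 43414483 to 43427189) encodes a salt-inducible kinase that PKA inhibits and that keeps the CREB coactivators (CRTC) out of the nucleus. It rose from 313, 230 and 307 to 2589, 2691 and 2544 normalized counts (log2 fold change 3.21, standard error 0.10, adjusted p = 9.24e-08). SIK1B, a near-identical copy, gave 177, 172 and 225 and then 1964, 1617 and 1725 (log2 fold change 3.22), and how reads were divided between both genes is uncertain. CREM, which encodes CRE-binding activators and, from an internal start, the repressor ICER, had 410, 311 and 377 at basal and 532, 507 and 583 after isoproterenol (log2 fold change 0.57, standard error 0.11, adjusted p = 0.0199). The groups did not overlap, as for every called gene. The call of CREM held in 3 of the 6 fits without 1 library and was not made with the GC and length offsets (adjusted p = 0.0677). The transcript CREM-203 held 0.00, 5.77 and 0.00% of the CREM counts at basal and 8.79, 8.75 and 11.3% after isoproterenol. At basal this was 0.0, 22.4 and 0.0 counts. CREM-218 held 26.36, 22.62 and 13.25% and then 10.31, 25.82 and 9.74%, values that overlapped. These shares were not tested. CREB1 had 971 ± 26.3 and 988 ± 61.8, and CRTC1 to CRTC3, CREBBP, EP300, SIK2, SIK3 and PPARGC1A, a coactivator of gluconeogenic genes, did not pass.

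**Figure D2:**
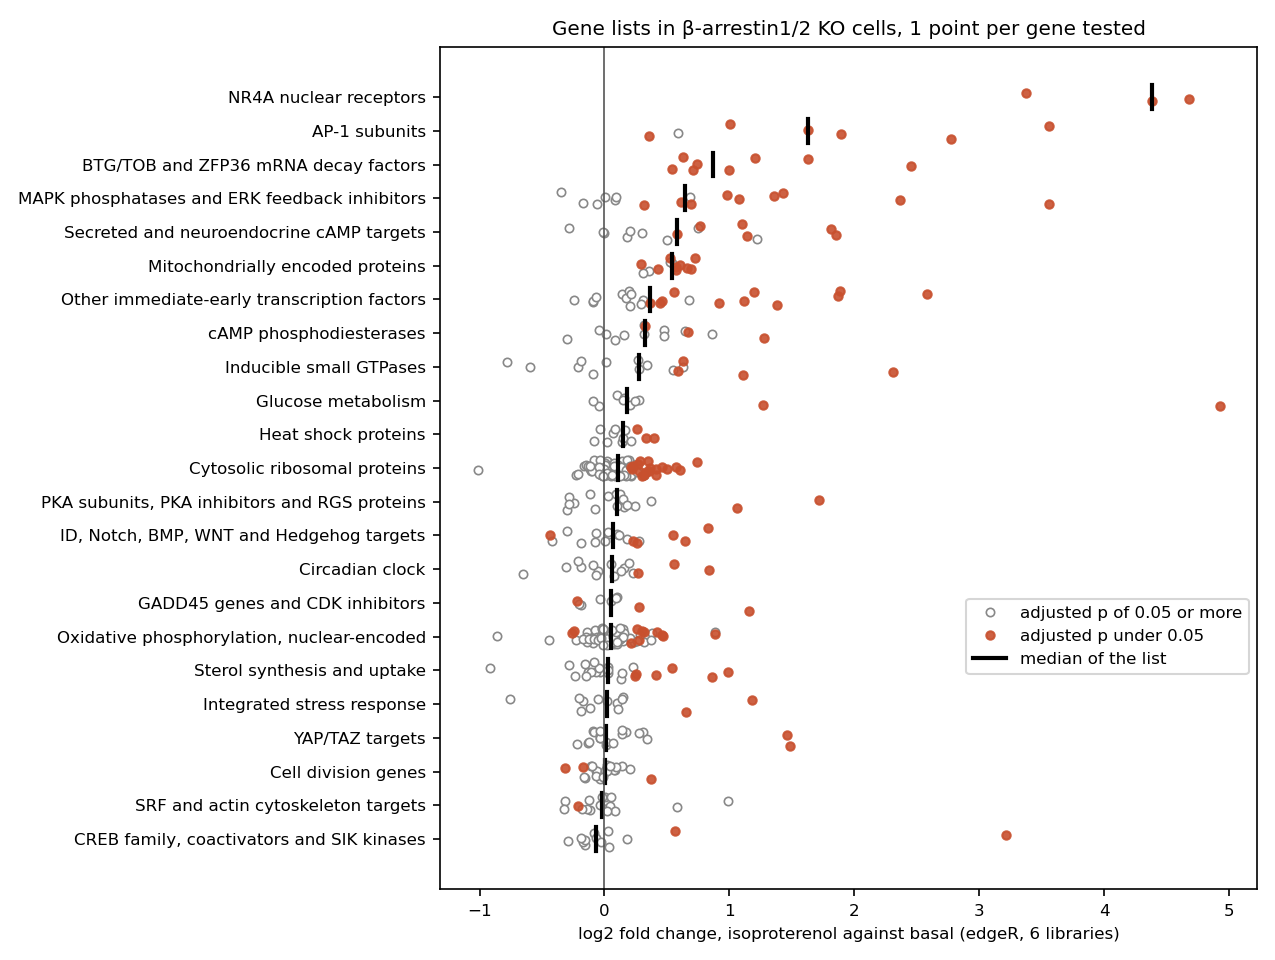
log2 fold change (isoproterenol against basal, edgeR, 6 libraries) of each gene tested in the gene lists other than the zinc finger (ZNF) genes, ordered by list median; filled points had an adjusted p under 0.05, open points did not, and black ticks are medians. Among the lists drawn the medians run from 4.38 (NR4A nuclear receptors) to -0.07 (CREB family, coactivators and SIK kinases).

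Genes that limit cAMP or Gα signaling rose in part. Phosphodiesterases hydrolyse cAMP, and 3 of 14 tested genes rose (21.4% against 4.96% of all genes) and 0 fell. With the GC and length offsets 1 of the 14 was called higher, and in the fit of all 18 libraries 0. PDE4D had 494, 507 and 500 normalized counts at basal and 797, 821 and 767 after isoproterenol (log2 fold change 0.67, standard error 0.06, adjusted p = 3.85e-04), and each of the 6 fits without 1 library called it. It was not called in the fit of all 18 libraries (adjusted p = 0.0942). PDE4B was low, with 16.1, 21.6 and 33.1 and then 55.7, 50.3 and 66.2 (log2 fold change 1.28, adjusted p = 0.0372), and both it and PDE10A (0.33, adjusted p = 0.0387) kept the call in 1 of those 6 fits. RGS proteins speed up GTP hydrolysis by Gα subunits. RGS2 rose from 134, 153 and 158 to 501, 489 and 476 (log2 fold change 1.72, adjusted p = 7.17e-06) and RGS16 from 875, 853 and 857 to 1775, 1806 and 1821 (1.06, adjusted p = 1.31e-06). They were the 2 called genes of 17 tested in the list of PKA subunits, PKA inhibitors and RGS genes (11.8% against 4.96% of all genes). PRKAR1A, PRKAR2A, PRKACB, PKIA and PKIG, which encode PKA subunits and inhibitors, did not pass, with log2 fold changes between -0.24 and 0.16.

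Dual-specificity phosphatases (DUSP) remove phosphate from MAP kinases, and Sprouty proteins (SPRY) block the cascade upstream of ERK. Of 16 such genes tested 9 rose (56.2% against 4.96% of all genes) and 0 fell, with a median log2 fold change of 0.65. DUSP1 (ENSG00000120129, chromosome 5, 172768090 to 172771195), which acts in the nucleus, had 2065, 2132 and 2264 normalized counts at basal and 24238, 26186 and 25735 after isoproterenol. This was a log2 fold change of 3.56 (standard error 0.06, adjusted p = 1.12e-09), with little spread among the libraries of a group. DUSP2, another nuclear phosphatase, rose by 2.37 from 12.9, 19.2 and 33.1 to 106, 124 and 106. DUSP5 and DUSP4 rose by 1.43 and 1.08. DUSP6, the cytoplasmic ERK phosphatase that often marks ERK activity, had 19.3, 19.99 and 16.04 and then 47.9, 49.3 and 45.5 (1.36, adjusted p = 0.0194), and the call held in 1 of the 6 fits without 1 library. SPRY4, SPRY2, DUSP10 and ERRFI1, an inhibitor of the EGF receptor, rose by 0.98, 0.69, 0.61 and 0.31. DUSP7, DUSP8, DUSP9 and the SPRED genes did not pass, and SPRY1 had 167 ± 50.8 and 266 ± 44.9 (adjusted p = 0.0915).

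The 8 genes of the BTG/TOB and ZFP36 families all rose. BTG and TOB proteins recruit the CCR4-NOT deadenylase and slow cell growth, and ZFP36 proteins bind AU-rich elements and speed the decay of short-lived mRNAs. BTG2 (ENSG00000159388, chromosome 1, 203305491 to 203309602) had 1618, 1619 and 1576 normalized counts at basal and 8554, 8824 and 8986 after isoproterenol (log2 fold change 2.45, standard error 0.04, adjusted p = 1.67e-09). TOB1 went from 1498, 1583 and 1554 to 4818, 4578 and 4960 (1.63, adjusted p = 6.55e-08). ZFP36L1 rose by 1.21, ZFP36 by 1.00, BTG1 by 0.74, ZFP36L2 by 0.71, BTG3 by 0.63 and TOB2 by 0.54. All 8 were also called with the GC and length offsets, and 7 in the fit of all 18 libraries, BTG3 being the exception (adjusted p = 0.207). Among the GADD45 and CDK inhibitor genes, GADD45B rose by 1.16 and CDKN1A, which encodes p21, by 0.28, CDKN2C fell by 0.22 (called in 2 of the 6 fits without 1 library), and GADD45A and GADD45G did not pass.

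Of 15 tested genes for secreted and neuroendocrine products, which include many CRE-driven hormone genes, 6 rose (40.0% against 4.96% of all genes) and 0 fell. STC1, the glycoprotein hormone stanniocalcin, had 121, 106 and 104 normalized counts at basal and 394, 380 and 424 after isoproterenol (log2 fold change 1.85, adjusted p = 9.08e-06). INHBA, the βA subunit of activins, had 55.8, 53.6 and 90.9 and then 273, 221 and 208 (1.82, adjusted p = 0.00151). CGA, the α subunit of the glycoprotein hormones and a long-used CRE model gene, was already high at basal, with 2947, 3324 and 4011, and reached 8415, 6183 and 7428 (1.10, standard error 0.13, adjusted p = 0.00103). The groups did not overlap for any of the 3, as for every called gene. VEGFA and CXCL8 rose by 0.58 and 0.76, and TAC1, the tachykinin precursor, by 1.14, though its call was lost in each of the 6 fits without 1 library. CXCL8 was not called with the offsets (adjusted p = 0.0746) or in the fit of all 18 libraries (adjusted p = 0.251). VGF, NPTX2, BDNF, PENK and PCSK1 did not pass. PTGS2, which encodes the inducible cyclooxygenase, rose from 13.95, 32.8 and 38.5 to 122, 140 and 129 (2.18, adjusted p = 0.0041) but was not called in the fit of all 18 libraries (adjusted p = 0.351).

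Small GTPases and secreted matrix proteins followed. GEM, a GTPase that inhibits calcium channels, had 162, 131 and 102 normalized counts at basal and 767, 611 and 581 after isoproterenol (log2 fold change 2.31, adjusted p = 4.86e-05). RHOB rose from 4807, 4773 and 5088 to 10342, 10776 and 10567 (1.11, adjusted p = 4.58e-07), and RND3 rose by 0.63 (not called in the fit of all 18 libraries, adjusted p = 0.110). In all, 4 of 15 tested members of the small GTPase list rose (26.7% against 4.96% of all genes) and 0 fell. CTGF and CYR61, matricellular proteins known as YAP/TAZ targets, rose by 1.49 and 1.46. CYR61 was tight in both groups, with 591, 574 and 593 and then 1613, 1619 and 1609. CTGF and CYR61 were the 2 called genes of 20 in the YAP/TAZ list (10.0% against 4.96% of all genes). There ANKRD1, AMOTL2, LATS2 and AJUBA did not pass and the median was 0.01. In the list of SRF and actin genes 0 of 17 rose. MYH9 fell by 0.21 (5.88% of the list against 2.98% of all genes, called in 1 of the 6 fits without 1 library). VCL, ACTB and SRF were at 0.05, 0.01 and -0.02. The members of this list ran from -0.33 to 0.99, with a median of -0.02. SEMA6B, a transmembrane semaphorin, varied most among the large increases, with 36.5, 17.6 and 25.7 and then 94.9, 301 and 182 (2.87, standard error 0.43, adjusted p = 0.00556). It was not called in the fit of all 18 libraries (adjusted p = 0.287).

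In the metabolic, clock, developmental, stress and cell division lists most members did not pass. Of 23 sterol genes 6 rose (26.1% against 4.96% of all genes) and 0 fell. Among the 6 were IDI1 (1468 ± 94.7 to 2919 ± 26.0 normalized counts, log2 fold change 0.99) and INSIG1 (0.86), which retains the sterol sensor in the endoplasmic reticulum. SQLE and SREBF2 did not pass, and with the GC and length offsets 3 of the 6 calls were made. The clock genes BHLHE40, PER1 and NR1D2 rose by 0.84, 0.55 and 0.27 among 16 tested (18.8%), and CLOCK, ARNTL, PER2 and CRY1 did not pass. NR1D2 was called in 0 of the 6 fits without 1 library, nor with the offsets (adjusted p = 0.351) or in the fit of all 18 libraries (adjusted p = 0.712), where PER1 was not called either (adjusted p = 0.170). ID2, ID1 and HES1, targets of BMP and Notch signaling, rose by 0.83, 0.65 and 0.55, and AXIN2, a WNT target, fell by 0.43 (448 ± 21.1 to 332 ± 21.2). Of 13 integrated stress response genes PPP1R15A, the GADD34 subunit of an eIF2α phosphatase, and ATF4 rose by 1.18 and 0.65 (15.4% of the list). DDIT3, TRIB3, ASNS and CHAC1 did not pass. HSPA5, HSPA8 and HSPH1 rose by 0.40, 0.33 and 0.26 among 12 chaperone genes. HSPH1 was not called with the offsets (adjusted p = 0.0906), and in the fit of all 18 libraries neither HSPH1 (adjusted p = 0.723) nor HSPA5 (adjusted p = 0.383) was. Of 24 cell division genes 1 rose (4.17%, close to the 4.96% of all genes), CCND1 by 0.37, and 2 fell (8.33% against 2.98%), MKI67 and MCM5 by 0.32 and 0.17, with CDK1, CCNB1 and TOP2A between 0.05 and 0.08. The calls of AXIN2 and MKI67 held in 2 and 1 of the 6 fits without 1 library, and that of MCM5 in 0. PER1 and AXIN2 overlap another gene on the same strand, and for the summed loci the log2 fold changes were 0.22 and -0.15, the latter not called (adjusted p = 0.225).

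TXNIP (ENSG00000265972, chromosome 1, 145992435 to 145996600) encodes a thioredoxin-binding arrestin-fold protein that lowers glucose uptake. It had 1040, 1122 and 931 normalized counts at basal and 320, 389 and 357 after isoproterenol. The groups lay far apart, and the log2 fold change was -1.54 (standard error 0.10, adjusted p = 1.69e-05), called in every fit without 1 library, with the offsets and in the fit of all 18 libraries. ARHGEF5, a guanine nucleotide exchange factor, had 339, 262 and 263 and then 146, 113 and 133 (-1.14, adjusted p = 0.00274), called in the same fits. SP9, a zinc finger factor, had 190, 178 and 199 and then 110, 96.6 and 108 (-0.85, adjusted p = 0.00766). UHRF1, which guides DNA methylation after replication, had 3691, 2584 and 2303 and then 970, 875 and 830 (-1.68, standard error 0.16, adjusted p = 2.90e-04). It was not called in the fit of all 18 libraries (adjusted p = 0.178).

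KIAA1147 (ENSG00000257093, chromosome 7, 141656728 to 141702153) had 1232, 1063 and 530 counts in the basal libraries and 0 in each isoproterenol library. Set against a floor of 3 counts in each library, the basal mean of 913 normalized counts was at least 304.3-fold higher. A count of 0 from Salmon can be a failed estimate, which was not tested. GDF1 had 343, 25 and 346 counts at basal and 0 in the 3 isoproterenol libraries, but it overlaps CERS1 on the same strand, and with both genes summed the log2 fold change was -0.43. The mirror case was AC011511.4, with 0 counts in the 3 basal libraries and 180, 170 and 141 after isoproterenol. It shares its locus with FDX2 and RAVER1, and summed with them the log2 fold change was -0.17 and did not pass (adjusted p = 0.0519). Of the 20 genes with the largest decrease 9 overlapped another gene on the same strand, and for 7 of these the summed locus was not called, among them HYPK, ZNF19, AJM1 and AC073896.1. How Salmon divided reads between such genes is uncertain. The same holds for genes with a partner on the other strand, such as CCND1 with LTO1 and ATP5MD with TAF5. VARS and STK19 (-1.25 and -1.52) lie in the MHC region, of which the human assembly also holds alternate copies, so their counts are uncertain for the same reason.

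Calls that were made in the 6 libraries, with the GC and length offsets and in the fit of all 18 libraries numbered 141 higher and 20 lower. The set depends on the fit of all 18 libraries, which called 175 genes, and 1849 without wildtype basal replicate 1. It includes AC011511.4 and ZNF19, whose summed loci were not called (adjusted p = 0.0519 and 0.166, edgeR). Among the 20 lower genes were H1FX, a linker histone (9505 ± 1097 to 6280 ± 383 normalized counts, log2 fold change -0.60), NCL, which encodes nucleolin (7777 ± 523 to 5607 ± 604, -0.47), and HJURP, the centromere histone chaperone (-0.43). PCF11, a transcription termination factor, fell by 0.42, the phosphatase inhibitor PPP1R14B by 0.68 and BBS5, a subunit of the BBSome, by 0.72. The genes named here were chosen after their values were seen. Further down the raised genes called in those 3 fits, also chosen in that way, were SOCS3 (1.58), the kinase SGK1 (1.17), the coregulator CITED2 (1.02), NFKBIZ (0.96), PLK2 (0.81), PMAIP1 (0.82), TRIB1 (0.71), TSC22D3 (0.68) and PIM1 (0.52).

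GC content moved with treatment. The count-weighted mean GC content of transcripts was 50.105, 49.765 and 49.996% in the basal libraries and 49.322, 49.292 and 49.426% after isoproterenol, and these ranges did not overlap. Genes called higher had a median GC content of 41.2% and genes called lower 61.9%, against 49.4% over all genes tested. Among the 2926 genes with the lowest GC content (32.0 to 41.8%) 390 were called higher and 3 lower, and among the 2924 with the highest (59.0 to 76.8%) 39 and 292. The 75 genes raised by at least 1 had a median of 51.5%. With offsets that remove the dependence on GC content and length in each library, 398 genes were called (2.72%), 311 higher (2.13%) and 87 lower (0.595%). The calls shared with the comparison above were 278 higher and 73 lower. The part of GC content in the small changes was not tested beyond these offsets.

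**Figure D3:**
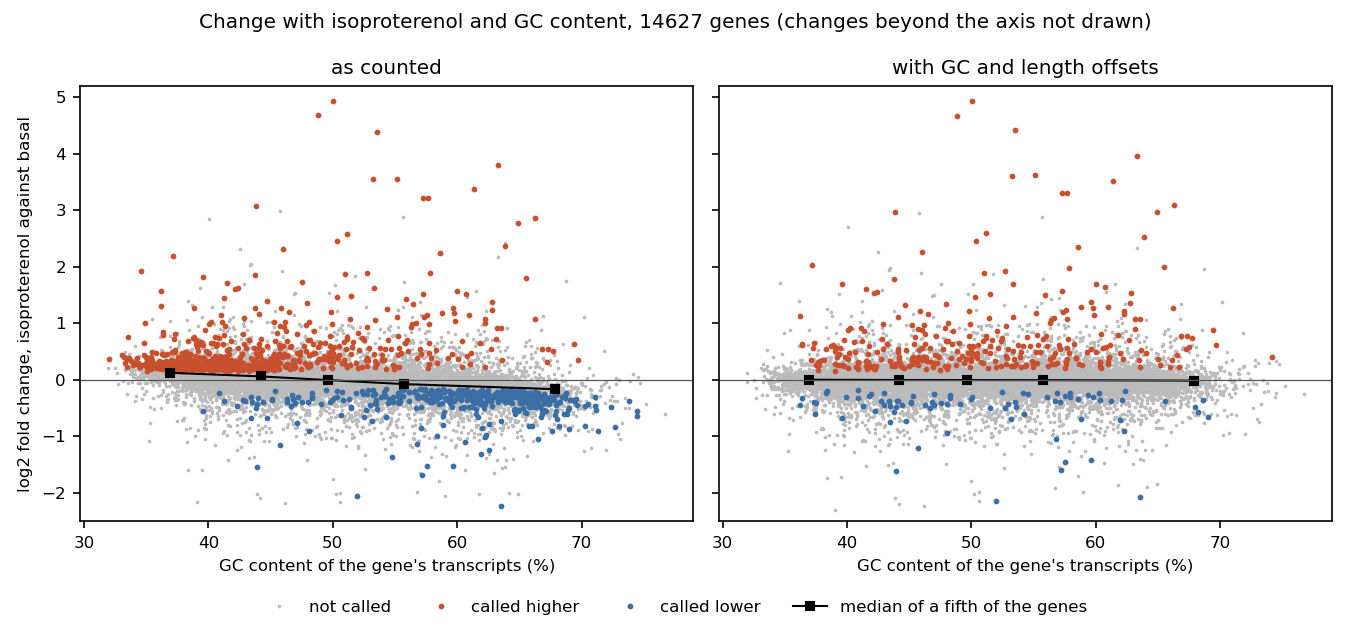
log2 fold change (isoproterenol against basal, 6 libraries) of 14627 genes against the GC content of their transcripts, as counted (left) and with GC and length offsets (right); squares are medians of 5 bins of genes by GC content. On the left the medians go from 0.127 in the lowest bin to -0.163 in the highest, and on the right they lie between -0.012 and 0.004.

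In the large families most members did not pass the test. Of 80 cytosolic ribosomal protein genes 19 rose (23.8% against 4.96% of all genes), by 0.21 to 0.74, and 0 fell, with RPS21 (4025 ± 250 to 6730 ± 379 normalized counts) and RPS26 (3949 ± 291 to 5887 ± 201) among them. With the offsets 16 were called and in the fit of all 18 libraries 4. Upper-quartile scaling moved the median of all genes to -0.04, which changes such small values. The mitochondrially encoded genes had log2 fold changes from 0.29 to 0.73, and 9 of 13 rose (69.2% against 4.96% of all genes). With the offsets 3 of the 13 were called, where 2.13% of all genes were called higher. MT-CYB had 23737, 36803 and 31767 and then 48346, 45826 and 55086 (0.69, adjusted p = 0.0196). Mitochondrial transcripts took 1.702, 2.66 and 2.29% of counts at basal and 3.06, 2.97 and 3.32% after isoproterenol, ranges that did not overlap, and the part of this share in the other results was not tested. Of 77 nuclear-encoded oxidative phosphorylation genes 9 rose (11.7%) and 2 fell (2.6%, against 2.98% of all genes), 4 and 0 were called with the offsets, and ATP5MD rose by 0.89. For ATP5MG and NDUFA7, which overlap other genes, the direction turned when the overlapping genes were summed (-0.0583 and -0.0042). Of 459 zinc finger (ZNF) genes 5 rose (1.09% against 4.96% of all genes) and 28 fell (6.1% against 2.98%), by -1.15 to -0.20. With the offsets 3 and 8 of the 459 were called, where 2.13 and 0.595% of all genes were.

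The genes raised by at least 1 were compact. Their median span was 8565 bases and 4.0 exons, against 32902 bases and 8.0 exons over all genes tested and 17050 bases and 8.0 exons for the 436 lowered genes. Genes called higher but by less than 1 had a median span of 32134 bases. RefSeq windows from 250 bases before to 50 after the start were at hand for 57 of the 75 genes. A full CRE (TGACGTCA) stood in 12.3% of these 57 genes, in 5.59% of genes raised by less than 1, in 2.78% of lowered genes and in 3.67% of all genes tested with a window. Over all 27305 genes with such a window, tested or not, the share was 2.25%. The short core (TGACG on either strand, which also counts full CREs) was present in 63.2%, 48.4%, 38.3% and 39.6% of the same classes of genes. Over the 27305 genes its share was 28.4%. Of the 25 genes with the largest increase 17 had a window, 13 of these held the short core and 1, DUSP1, a full CRE. The NR4A1, ATF3, DUSP2 and INHBA windows held neither. These shares are descriptions and were not tested.

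**Figure D4:**
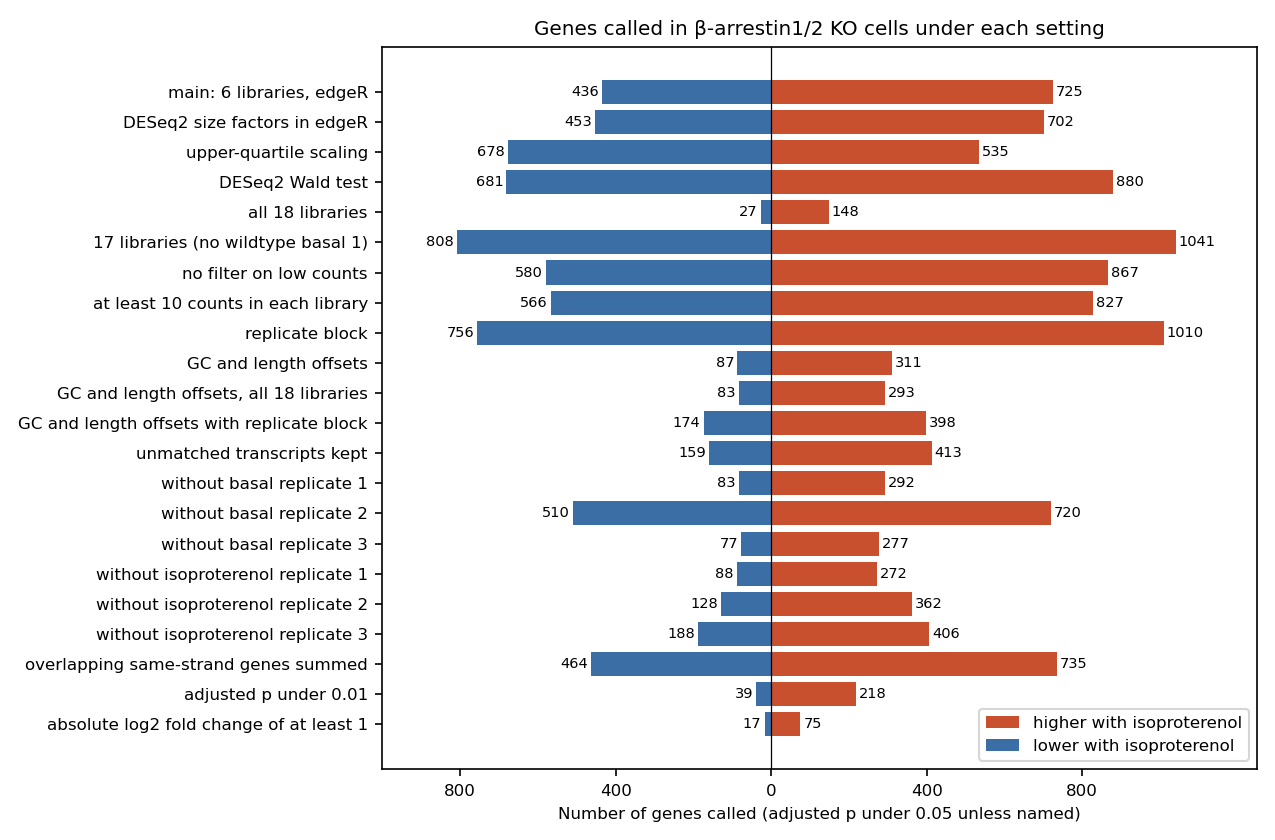
Number of genes called higher (right) and lower (left) with isoproterenol in β-arrestin1/2 KO cells under each way of processing; bars start at 0. The calls range from 175 (148 higher, 27 lower, all 18 libraries) to 1849 (1041 and 808, 17 libraries) at an adjusted p under 0.05.

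The number of calls depended on the model and on single libraries, as the plot of counts by setting shows. Leaving out basal replicate 2 gave 1230 calls, and leaving out any other library gave 354 to 594. In the fit of all 18 libraries, which share an estimate of the spread, 175 genes were called (1.13%), 148 higher (0.954%) and 27 lower (0.174%). Without wildtype basal replicate 1, which is outside this comparison, the same fit called 1849 genes, 1041 higher and 808 lower. Of these, 687 higher and 407 lower were also called in the 6 libraries. Among the 132 named genes that were called, 55 lost the call with all 18 libraries and 4 in the fit without that replicate. Why the calls moved was not tested. No setting called a gene in the opposite direction to the fit of the 6 libraries. With 3 libraries against 3, an exact permutation test of a single gene cannot give a two-sided p under 0.1, so the calls rest on the spread that edgeR pools over genes.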

How the data were processed

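RNA-Seq libraries of 6 groups with 3 replicates each were made from poly-T-selected RNA, and the strand setting is not given in the sources used here. The authors quantified paired-end reads with Salmon 1.7.0 and deposited expected counts, the estimated number of read pairs per transcript, for 184844 transcripts in a column for each of the 18 libraries. These values were not normalized for depth or length. The submitters' processing notes name GRCh38 and hg38, and the transcript annotation is not given in the sources used here. Per the study's methods the authors then used DESeq2, and no output of it was used here.

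Transcripts were matched by Ensembl identifier to GENCODE release 29, which gave 161798 transcripts of 34255 genes, and the deposited expected counts were summed per gene and rounded. In the 6 libraries 93.671 to 93.745% of counts were matched, and 11965 unmatched transcripts with a count were left out. Totals of 18433424 to 25019834 counts per library gave a common biological coefficient of variation of 0.102. R 4.3.3, edgeR 4.0.16, DESeq2 1.42.0 and limma 3.58.1 were used. After TMM scaling and a low-count filter (filterByExpr, minimum count 10), glmQLFit and glmQLFTest were run without covariates, with Benjamini-Hochberg adjustment over 14627 genes and a threshold of 0.05. Standard errors were derived from each log2 fold change and its F statistic. Folds are isoproterenol values over the mean basal count. Gene properties are means over transcripts weighted by count.

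Named genes are the 25 largest increases and 20 largest decreases among called genes whose groups did not overlap and whose mean was at least 50 normalized counts, at most 6 called members per list and direction, and the targeted genes. Some genes that this rule names, and a marker gene, are not reported here. The 6 libraries were chosen by cell line and treatment, and this choice and the gene lists were made with earlier results of these data known. Other list members are given as counts and single values.

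Alternatives were DESeq2 size factors, upper-quartile scaling, DESeq2's Wald test, all 18 libraries in a fit with a coefficient per group, the same without wildtype basal replicate 1, no low-count filter, at least 10 counts in each library, a replicate block, lowess offsets for GC content and length (span 0.3) alone or with the block or all 18 libraries, unmatched transcripts kept, omission of each library, a threshold of 0.01, and a 2-fold limit (log2 fold change of 1 or more). Summing overlapping genes of the same strand was added after seeing the data. The labels number the replicates, but same-numbered basal and isoproterenol libraries correlated in their departures from the group means by 0.0172 to 0.0692, so they were not treated as pairs. No libraries were duplicates, since replicate pairs differed by at least 5.71 times the sampling noise in a chi-square comparison.

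The pipeline was tested on simulated data for this comparison (14625 genes, 50 changed at each fold). It recovered 18% of changes of 1.25-fold, 64% of 1.5-fold, 60% of 2-fold and 92% of 3-fold, and called 6 unchanged genes. The simulated counts carried no dependence on GC content, which the real libraries did. The 6 therefore give no measure of unchanged genes called through GC content in the data.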

Additional observations from a re-analysis of the deposited data

Results flagged for a closer look

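Transcripts without a match in GENCODE 29 entered no gene. Fitted with the matched genes in the same 6 libraries, 4532 of them passed the filter, and 34 were higher and 40 lower with isoproterenol at an adjusted p under 0.05 (edgeR). That joint fit held 19159 features in all, of which 413 were called higher and 159 lower. The 4.96 and 2.98% of matched genes come from the separate fit without these transcripts, so they are no measure for the unmatched ones. The 34 are given only because they lie outside the genes described above. What they are was not analysed here.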

How the results depend on the processing

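The number of calls moved with the setting. Against 1161 genes (725 higher, 436 lower), upper-quartile scaling gave 1213 (535 and 678), so that 44.1% of calls were higher against 62.4%, and DESeq2's Wald test gave 1561 (880 and 681), with 2559 adjusted p-values not given. The fit of all 18 libraries gave 175 (148 and 27), and without wildtype basal replicate 1 1849 (1041 and 808). GC and length offsets gave 398 (311 and 87), 376 with all 18 libraries (293 and 83), and 572 with the replicate block (398 and 174). Keeping unmatched transcripts as features gave 572 (413 and 159), an adjusted p under 0.01 gave 257 (218 and 39), and a 2-fold limit (a log2 fold change of 1 or more) gave 92 (75 and 17). Leaving out each library in turn gave 354 to 1230 calls, 272 to 720 higher and 77 to 510 lower. The fewest calls in all, 354, were made without basal replicate 3, and the count without basal replicate 1 was 375, without isoproterenol replicates 1, 2 and 3 360, 490 and 594. The replicate block gave 1766 calls (1010 and 756). The labels do not say that a number pairs libraries, the correlations of same-numbered libraries stayed under 0.1, and 2 of the 3 basal libraries correlated best with their own number, so this count is given as a hint only. DESeq2's size factors, no filter, 10 counts in each library and summed overlapping genes kept all 3 counts within 1.5 times. The causes were not tested.

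Of 132 named genes that were called, none turned direction except under summing overlapping genes (chosen after seeing the data), where AC011511.4 was at -0.17, ATP5MG at -0.0583 and NDUFA7 at -0.0042. Over all settings 2205 values kept the call and 552 lost it. In simulated data for this comparison (14625 genes) 18% of changes of the smallest fold were recovered, and the part of depth in this was not tested.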
